A study of Mus musculus with 23 samples.

Results

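The replication-dependent histone genes were taken as every row of the count files whose symbol begins with Hist1h, Hist2h, Hist3h or Hist4h. There were 62 of them among 18512 symbols: 6 for the linker histone H1, 15 for H2A, 16 for H2B, 12 for H3 and 13 for H4. At least 10 counts in 7 or more mice were found for 43 of the 62 (5 H1, 5 H2A, 11 H2B, 10 H3 and 12 H4), and these are described here. The RNA came from the head of the pancreas of C57BL/6 mice of both sexes, aged 6 to 8 weeks and weighing 20 to 25 g. Caerulein, a peptide that overstimulates the acinar cells and causes acute pancreatitis, had been injected at 50 µg/kg every hour, 8 times a day on 2 days. The 8 baseline mice (4 female, 4 male) were uninjured, 8 mice (4 female, 4 male) were taken at day 7 of recovery and 7 (3 female, 4 male) at day 14, 1 mouse per library. Libraries were made from total RNA after removal of ribosomal RNA, so RNAs without a poly(A) tail were also sequenced.

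These genes supply the histones that package newly made DNA, and in dividing cells their mRNAs build up during S phase and are degraded when replication ends. Unlike other mRNAs, most of them are not polyadenylated. Their 3′ end is cut a few bases after a conserved stem-loop, which is bound by the stem-loop binding protein Slbp, with help from the U7 small nuclear RNP. The core histones H2A, H2B, H3 and H4 form the nucleosome, and H1 binds the linker DNA between nucleosomes. In the adult pancreas acinar cells seldom divide, and they re-enter the cell cycle during regeneration after pancreatitis.

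In GENCODE vM21 on GRCm38, 48 of the 62 genes lie on chromosome 13 (the Hist1 cluster, between positions 21715763 and 23764406), 10 on chromosome 3, 3 on chromosome 11 and 1 on chromosome 6. The stem-loop was searched for after the stop codon as 16 bases: 6 base pairs, all Watson-Crick, beginning with GG, around a loop of 4 bases beginning with TTT. It was present in 41 of the 48 gene models that had at least 16 bases after the stop codon, against 19 of 20929 other coding genes (0.0908%). The stem began 21 to 58 bases (median 31) after the stop codon. Only 6 spellings occurred, and 1 gene for each is shown because the spelling divides the families. Each is read from the 3′ UTR of the transcript, 5′ to 3′, with the stem-loop in capitals.
Hist1h1c: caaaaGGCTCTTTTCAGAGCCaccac
Hist1h3e: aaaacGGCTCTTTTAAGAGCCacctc
Hist2h2ac: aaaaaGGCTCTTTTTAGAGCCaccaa
Hist1h4d: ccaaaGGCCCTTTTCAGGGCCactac
Hist1h4i: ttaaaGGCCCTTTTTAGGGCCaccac
Hist1h4j: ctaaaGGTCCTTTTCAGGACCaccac
The stem-loop of Hist1h1c is at chr13:23739512-23739527 (plus strand), that of Hist1h3e at chr13:23561903-23561918 (minus), that of Hist2h2ac at chr3:96220418-96220433 (minus), that of Hist1h4d at chr13:23581950-23581965 (plus), that of Hist1h4i at chr13:22040966-22040981 (minus) and that of Hist1h4j at chr13:21735437-21735452 (plus). The spelling of Hist1h1c was shared by 23 genes of the families H1, H2A, H2B and H3, that of Hist1h3e by 6 genes of H1, H2B and H3, and that of Hist2h2ac by no other gene. All 11 H4 genes with a match had another stem: 7 were spelled as in Hist1h4d, 2 as in Hist1h4i (with Hist2h4) and 2 as in Hist1h4j (with Hist1h4b). No match was found in the models of Hist1h1a, Hist1h2bc, Hist1h2bp, Hist1h3g, Hist1h4a, Hist2h2be and Hist2h3b. Models of 22 genes ran on for 100 bases or more after the stem-loop, to 4884 bases at most, and 19 ended within 100 bases of it.

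RefSeq promoters (GRCm38.p6, 250 bases before to 50 bases after the start) were matched for 56 of the 62 genes. On either strand, TATAAA was present in 33 of them (58.9%, against 13.6% of all 32851 promoters), CCAAT in 47 (83.9%, against 37.4%) and the octamer ATTTGCAT in 12 (21.4%, against 1.74%). All 44 promoters of H1, H2A, H2B and H3 genes held CCAAT, as did 3 of 12 H4 promoters. The octamer was found in 6 of 15 H2A and 6 of 13 H2B promoters, and in no H1, H3 or H4 promoter. Promoters of some neighbouring H2A and H2B genes overlap, so the same site can count in both families. Hist1h2ah and Hist1h2bk share an octamer in this way, as do Hist1h2ae and Hist1h2bg. The promoters of an H2B and an H4 gene that were higher at day 7 are printed to show this contrast, with the matches in capitals. That of Hist1h2be (chr13:23585921-23586220, minus strand) holds CCAAT and the octamer, and that of Hist1h4j (chr13:21734784-21735083, plus strand) holds TATAAA but not the others.
Hist1h2be: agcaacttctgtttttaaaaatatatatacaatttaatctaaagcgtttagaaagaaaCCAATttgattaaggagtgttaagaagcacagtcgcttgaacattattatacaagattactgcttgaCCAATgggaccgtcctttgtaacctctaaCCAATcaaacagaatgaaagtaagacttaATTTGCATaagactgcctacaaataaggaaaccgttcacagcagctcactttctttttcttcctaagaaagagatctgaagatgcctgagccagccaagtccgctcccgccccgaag
Hist1h4j: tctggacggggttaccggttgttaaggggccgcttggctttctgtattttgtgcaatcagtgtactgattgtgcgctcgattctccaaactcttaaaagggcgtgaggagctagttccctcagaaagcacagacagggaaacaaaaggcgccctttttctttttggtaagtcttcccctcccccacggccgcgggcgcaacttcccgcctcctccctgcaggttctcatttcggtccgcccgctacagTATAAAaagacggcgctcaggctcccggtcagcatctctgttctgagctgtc

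Total counts per mouse ranged from 7059890 to 9567446 over the 18512 symbols. In the plots and in the values below, a normalized count is the read count after TMM scaling to the mean effective library size (8686000). The effective size ran from 5743530 in mouse 8 (baseline) to 13345042 in mouse 10 (day 7). In mouse 8, 1 read is therefore more than 1 unit, and in mouse 10 it is less. The 12 acinar marker genes, from amylase to elastases, summed to 396016 to 584007 CPM (counts relative to the TMM-scaled size of the library) in baseline mice and to 234580 to 357711 in day 7 mice, so the defining genes of exocrine pancreas were abundant in every mouse. The 10 lymphocyte markers summed to 71.7 CPM in mouse 5 (baseline), 124 in mouse 10 and 68.9 in mouse 15 (both day 7) and 74.1 in mouse 21 (day 14), against at most 20.4 in the other 19 mice, and values without these 4 mice are given where they bear on a call. In bulk tissue fewer cells of a type and less RNA per cell cannot be told apart.

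Among the families, H1 genes took 33.9% of all normalized histone counts, H4 genes 31.5%, H2B genes 20.0%, H3 genes 8.29% and H2A genes 6.41%. Just 6 genes (Hist1h1c, Hist1h1e, Hist1h2bc, Hist1h4d, Hist1h4h and Hist1h4c) held 57.3%, and the 43 genes above the threshold held 97.4%. Per kilobase of exons the mean level over the 23 mice was 363 normalized counts for Hist1h4h, 217 for Hist1h1c (the H1.2 linker histone), 211 for Hist1h2bc, 190 for Hist1h4c and 170 for Hist1h1e (the H1.4 linker histone). The lowest of the 43 was Hist2h3c1 at 5.10 per kilobase. Exon lengths are those of GENCODE, since the annotation used for counting was not given in the sources used here. Per kilobase of coding sequence the order at the top changed, to Hist1h2bc (640), Hist1h4d (595), Hist1h4h (547) and Hist1h1c (530).

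**Figure D1:**
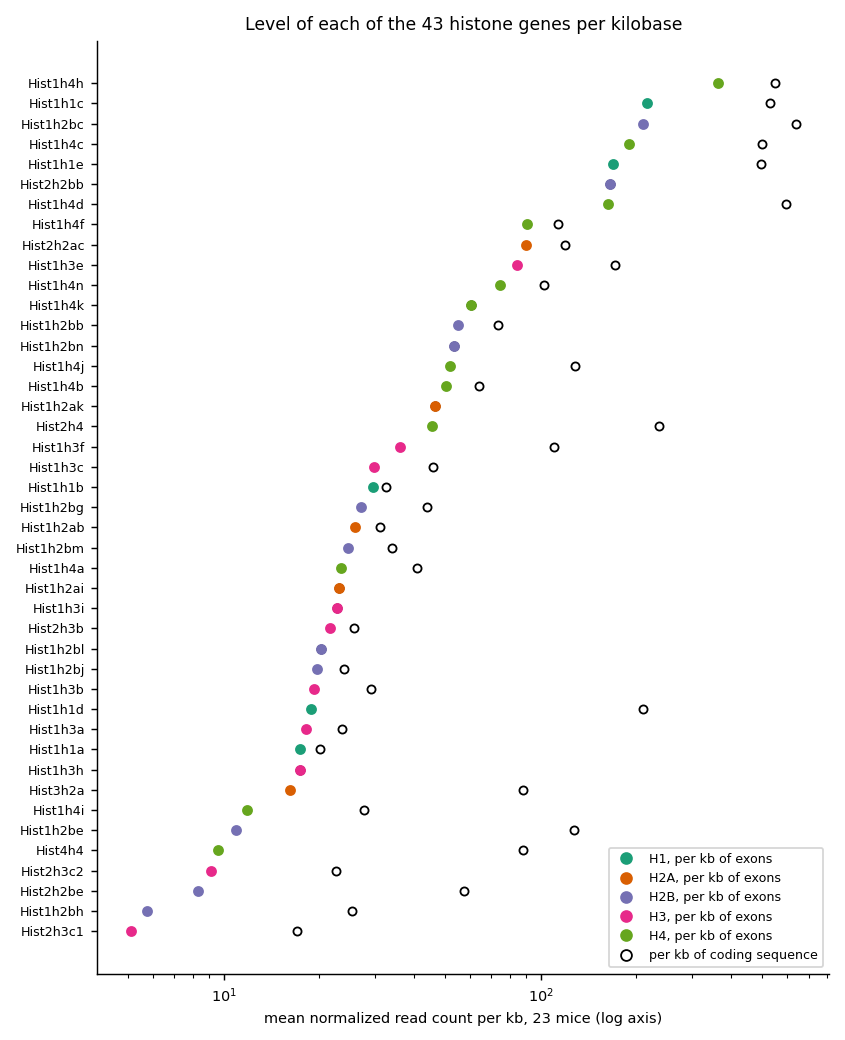
Mean normalized read count of each of the 43 histone genes over 23 mice, divided by the length of its exons (filled points, coloured by family) or of its coding sequence (open points), in kilobases, on a log axis. Per kilobase of exons the levels run from 5.10 (Hist2h3c1) to 363 (Hist1h4h), and for genes with long annotated 3′ ends, such as Hist1h1d and Hist1h2be, the open point lies far to the right of the filled one.

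The remaining 19 genes had 4 to 176 counts summed over all 23 mice. Just inside the threshold, with 10 counts in 7 mice, were Hist1h2bh, Hist1h2bl and Hist1h3h, and just outside it, with 6 mice, were Hist1h2ac and Hist1h3g. Only 5 of the 15 H2A genes passed. At the other end, 17 genes reached 10 counts in all 23 mice. Hist2h3c1 and Hist2h3c2 had the same counts in every mouse, as did Hist2h2aa1 and Hist2h2aa2, so sums include each pair once. Hist2h3c1 and Hist2h3c2 were still tested as separate genes, so numbers of genes and median fold changes include both. Many of these genes are near-copies, and in 16 of the 43 under 50% of the 75-base windows of the transcript were unique among GENCODE transcripts. Counts of uniquely mapped fragments are uncertain for such genes. In Hist2h3b, Hist2h2bb and Hist2h3c1 no window was unique. A window also counted as shared when the other gene was annotated over the same place, on either strand. Exons of Hist2h3b and Hist2h2bb overlap Gm20628, and those of Hist2h3c1 overlap Gm20634. For Hist2h3b and Hist2h2bb a lack of unique windows need not mean a copy elsewhere in the genome. Hist2h3c1 had the same counts as Hist2h3c2, of whose windows 37.4% were unique. How both came to have the same counts was not given. The kit marks strand, but whether the counting used it was not given.

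The first question was whether histone mRNAs still differed from uninjured pancreas at day 7, when recovery was under way. Of the 42 genes tested, 41 had a positive log2 fold change, with a median of 0.49 (all 12195 genes tested: 53.7% positive, median 0.02). A total of 7 of 42 (16.7%) were called higher, which took both an adjusted p no higher than 0.05 and a change of 1.5-fold or more, and none was called lower. The same rule called 3.82% of all genes higher and 1.31% lower. The 7 genes were the H2B genes Hist2h2be, Hist1h2be and Hist1h2bl, the H3 gene Hist2h3b and the H4 genes Hist1h4i, Hist1h4j and Hist1h4n. By adjusted p alone, 10 of 42 were higher (8.86% of all genes), the 3 others being Hist1h4d, Hist4h4 and Hist1h1c. Of the 42, 5 had no baseline mouse with 10 counts, so that they met the threshold of 10 counts in 7 mice only through mice taken after injury: Hist1h2bl, Hist1h4i, Hist2h3b, Hist2h3c1 and Hist2h3c2. Of the other 37, 36 were positive (median 0.45) and 4 were called. The share of 3.82% for all genes is without this restriction, and no share was taken with it. With no filter except 1 count, 61 of all 62 genes were positive (median 0.51, all genes 0.06), and 5 were called (8.06%, against 2.61% of all genes). Hist1h2bl and Hist2h3b were no longer among them. Leaving out the 4 mice with high lymphocyte markers, 29 of 35 genes tested were positive (50.1% of all genes), the median was 0.23 and 2, Hist2h2be and Hist1h4i, were called (5.71%, against 3.42% of all genes called higher). Hist1h2bl and Hist2h3b were not tested in that fit, since they did not pass its filter. Without mouse 10 or mouse 15 alone, 3 and 4 were called (7.89% and 10.5%, against 3.44% and 3.08% of all genes). When the share of reads that mapped was added as a covariate, none was called (0.533% of all genes were called higher), 4 had an unadjusted p under 0.05 (9.52%, against 15.4% of all genes), 23 of 42 were positive (54.8%, against 50.8%) and the median was 0.08. In the study's values, every day 7 and day 14 mouse had a higher mapped share than every baseline mouse except mouse 5. The mapped share and the time point can therefore hardly be told apart in this fit. The part of the mapped share was not tested in another way. DESeq2 called 6.

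The H1 genes encode linker histones, and none of the 5 passed both criteria. Hist1h1c was measured at 239 to 361 normalized counts at baseline (median 293), 274 to 578 at day 7 (median 391) and 240 to 444 at day 14 (median 278). At day 7, 6 of 8 mice were above every baseline mouse, and the log2 fold change was 0.47 ± 0.13 (SE; edgeR adjusted p = 0.0132), under the fold threshold. Hist1h1e spanned 213 to 348 in baseline mice and 259 to 462 in day 7 mice (medians 296 and 358), with a log2 fold change of 0.25 ± 0.12 (adjusted p = 0.153). Hist1h1a, among the rarest, lay between 0 and 22.5 at baseline and between 0 and 48.8 at day 7, with the maximum in mouse 10, and the medians (8.74 and 5.55) went against its positive log2 fold change of 0.38 ± 0.71.

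The 5 H2A genes tested had log2 fold changes of 0.22 to 0.94 (median 0.42), and none was called. Hist1h2ab had the largest, at 0.94 ± 0.42 (adjusted p = 0.126), and spanned 1.51 to 18.2 in baseline mice and 6.77 to 31.9 in day 7 mice. The most abundant H2A gene, Hist2h2ac, spanned 34.7 to 51.4 in baseline mice and 37.9 to 64.0 in day 7 mice. For both genes the groups overlapped.

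Of the 11 H2B genes, 3 were called and all 11 were positive (0.08 to 1.19, median 0.59). Hist2h2be had 9.07 to 21.1 normalized counts at baseline (median 15.5), 21.3 to 44.4 at day 7 (median 26.2) and 16.8 to 29.5 at day 14 (median 21.7). Every day 7 mouse was above every baseline mouse, and the log2 fold change was 0.89 ± 0.18 (adjusted p = 0.00123). It was 0.87 without the 4 mice with high lymphocyte markers, and 1 of those mice, mouse 15, was the second lowest of the day 7 group for this gene.

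Hist1h2be ranged from 28.0 to 57.3 at baseline (median 38.5), from 36.8 to 93.3 at day 7 (median 58.5) and from 36.9 to 57.0 at day 14 (median 43.4). The groups overlapped, with 5 of 8 day 7 mice above every baseline mouse and mice 15 and 10 highest. Its log2 fold change was 0.59 ± 0.15 (adjusted p = 0.00763), and 0.37 without the 4 mice, which was not called (adjusted p = 0.081). An annotated exon of Hist1h2be overlaps Hist1h1e on the same strand, so reads of both genes may not be separable there. Hist1h2bl was rare, at 0 to 9.65 at baseline (median 4.72), 4.84 to 18.9 at day 7 (median 9.65) and 3.69 to 12.3 at day 14 (median 7.67). No mouse had more than 29 reads of it. Its log2 fold change of 1.19 ± 0.40 (adjusted p = 0.0346) is that of a gene with at most 9 reads in any baseline mouse. It met the threshold of 10 counts only in mice taken after injury. Only 26.7% of its 75-base windows were unique, so its counts are uncertain. In contrast, the abundant Hist1h2bc stayed in a narrow range, at 205 to 274 at baseline and 223 to 300 at day 7 (log2 fold change 0.08 ± 0.07, adjusted p = 0.481).

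Among the 9 H3 genes tested, log2 fold changes ran from -0.02 to 0.74 (median 0.54), and 1 gene was called. Hist2h3b ranged from 5.03 to 12.1 at baseline (median 8.05), from 6.77 to 20.1 at day 7 (median 16.5) and from 6.82 to 14.0 at day 14 (median 8.73). At day 7, 5 of 8 mice were above every baseline mouse and the other 3 lay within the baseline range. Its log2 fold change was 0.74 ± 0.26 (adjusted p = 0.0443), and it is uncertain, with 25 reads at most in a mouse and at most 8 in a baseline mouse. None of its windows was unique, but a gene annotated on the opposite strand overlaps its exons. Hist1h3e, the most abundant H3 gene, was the 1 gene of 42 with a negative value (-0.02 ± 0.13), at 52.6 to 99.8 at baseline and 54.2 to 100.2 at day 7. Hist1h3h, with 7 mice at 10 counts, did not pass the filter for testing: its medians were 2.91, 7.56 and 7.39 at baseline, day 7 and day 14.

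The H4 genes encode the core histone that pairs with H3 in the nucleosome, and all 12 had positive log2 fold changes (0.16 to 0.97, median 0.44), with 3 called. Hist1h4j ranged from 21.04 to 37.5 at baseline (median 32.3), from 40.6 to 67.3 at day 7 (median 46.8) and from 27.3 to 54.2 at day 14 (median 39.7). As for Hist2h2be, no day 7 mouse fell within the baseline range, and its log2 fold change was 0.66 ± 0.16 (adjusted p = 0.00398). Hist2h2be and Hist1h4j were the 2 of 42 genes (4.76%) whose day 7 and baseline mice did not overlap in this direction, against 1.16% of all genes. Without the 4 mice, Hist1h4j had 0.57 (adjusted p = 0.0165), which missed the fold threshold.

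Hist1h4d, one of the abundant H4 genes, had the smallest p of the 42. It ranged from 136 to 208 at baseline (median 157), from 179 to 252 at day 7 (median 214) and from 164 to 196 at day 14 (median 174), and 5 of 8 day 7 mice were above every baseline mouse. The log2 fold change was 0.41 ± 0.08 (adjusted p = 9.15e-04), equal to that without the 4 mice at 2 decimals, and was under the fold threshold. Hist1h4n went from 8.42 to 39.0 at baseline (median 23.4) to 25.2 to 53.5 at day 7 (median 44.6), with a log2 fold change of 0.75 ± 0.22 (adjusted p = 0.0185). Hist1h4n was at 0.57 without the 4 mice (adjusted p = 0.112) and was not called. Only 16.6% of its 75-base windows were unique, so its counts are uncertain. Hist1h4i, with 1.51 to 9.64 at baseline (median 4.62) and 5.42 to 16.3 at day 7 (median 11.4), had 0.97 ± 0.29 (adjusted p = 0.0192). No baseline mouse had more than 9 reads of Hist1h4i, so it too met the threshold only through mice taken after injury. The abundant Hist1h4h and Hist1h4c had 0.23 ± 0.11 and 0.16 ± 0.13 and were not called, and Hist1h4c was at -0.03 without the 4 mice.

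**Figure D2:**
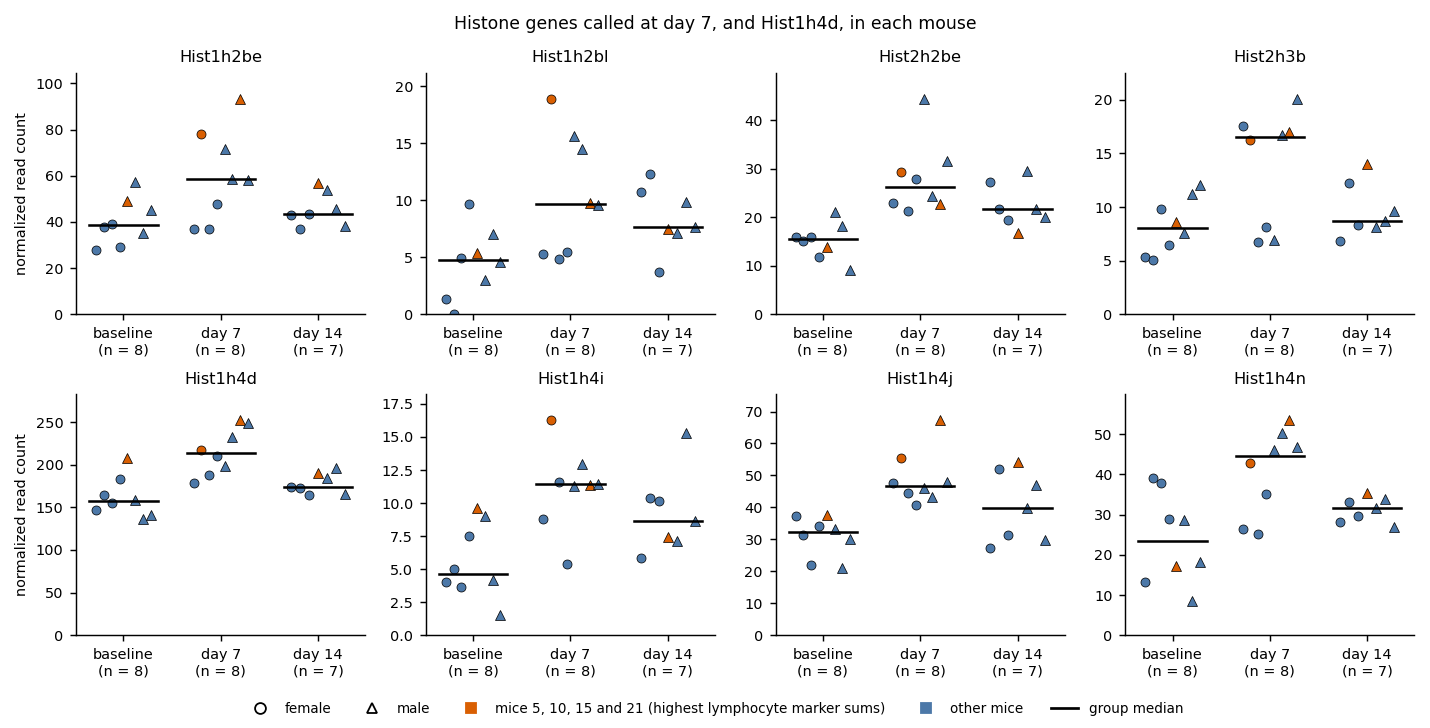
Normalized read count of the 7 histone genes called at day 7 and of Hist1h4d in each mouse (circles female, triangles male, bars the group medians). Orange points are mice 5, 10, 15 and 21, which had the highest lymphocyte marker sums, and in Hist2h2be and Hist1h4j all 8 day 7 points are above all 8 baseline points.

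By the stem-loop groups shown above, the day 7 median was 0.54 for the 14 tested genes spelled as in Hist1h1c. It was 0.35 for the 4 spelled as in Hist1h3e and 0.34 for the 6 spelled as in Hist1h4d. For the 2 spelled as in Hist1h4i and the 2 spelled as in Hist1h4j it was 0.57 each, and Hist2h2ac was at 0.22. The called genes Hist2h2be and Hist2h3b had no match and are in none of these groups. Genes whose model extends 100 bases or more past the stem-loop had a median of 0.47 (17 genes, 3 called), and those ending sooner 0.49 (12 genes, 1 called). Among called genes, the models of Hist2h2be, Hist1h2be, Hist1h4i and Hist1h4j held a poly(A) signal (AATAAA or ATTAAA) in their last 50 bases. Those of Hist1h4n and Hist2h3b did not, and the model of Hist1h2bl ends at its stop codon. Whether any of these RNAs carried a poly(A) tail was not tested. The 27 genes with at least 50% unique windows had a median of 0.42 (4 called), and the 15 others 0.55 (3 called). Of all genes tested, 3.82% were called higher.

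**Figure D3:**
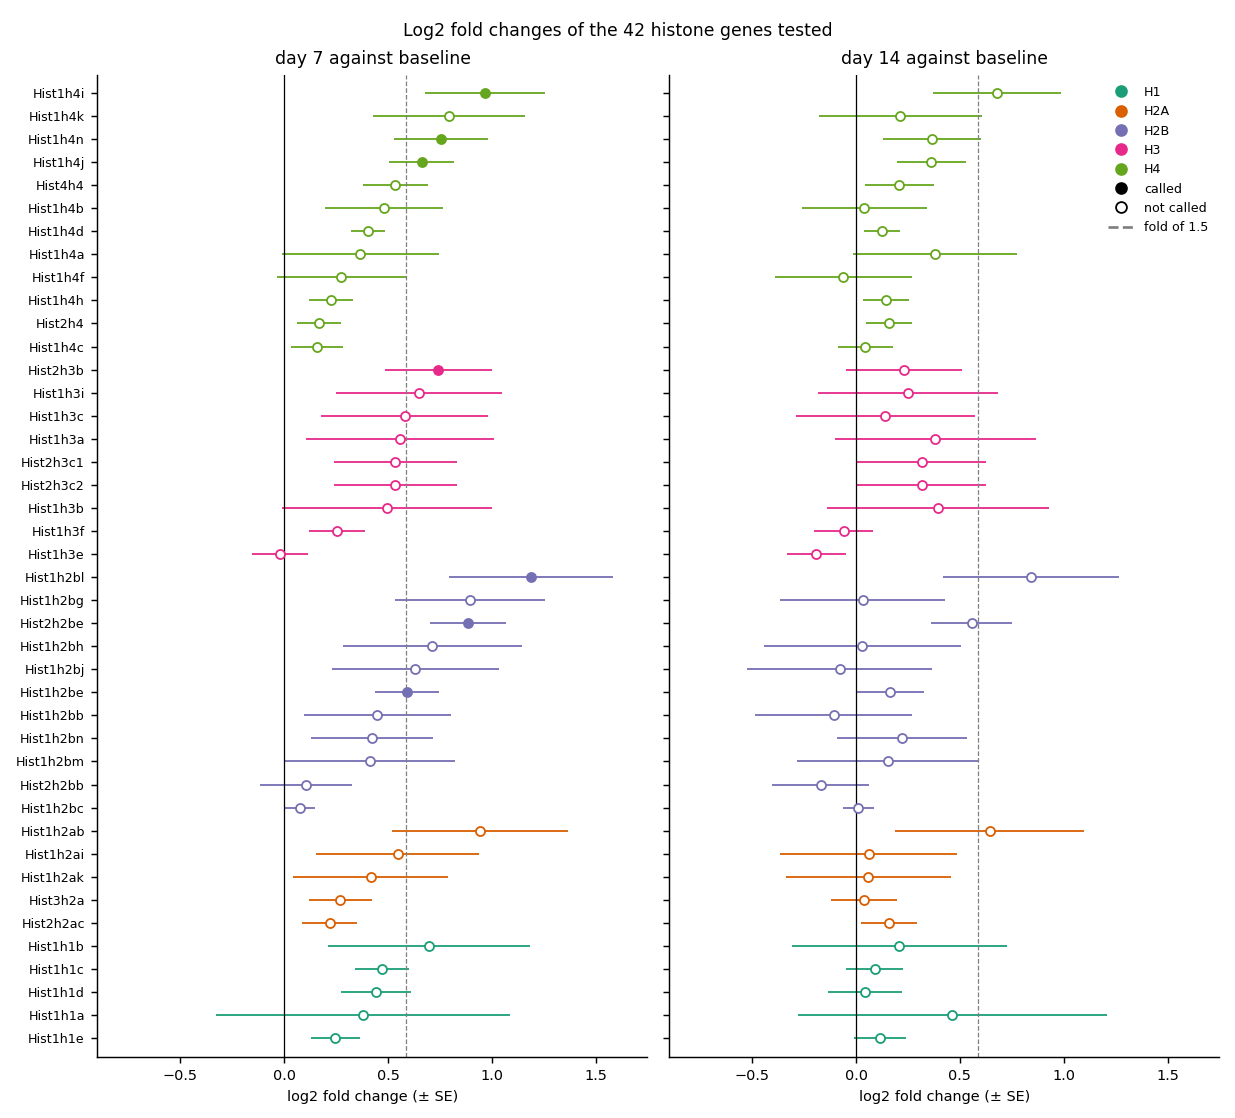
Log2 fold change of each of the 42 histone genes tested, at day 7 and at day 14 against baseline, with the standard error as a bar. Genes are grouped by family (colours) and filled points were called: 7 at day 7 and none at day 14, and at day 7 the value of Hist1h3e (-0.02) is the only negative one.

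Within the day 7 group the mice differed widely. Summed over the 60 distinct histone rows, the level was 212 to 293 CPM at baseline (254 ± 26.9, SD, n = 8), 236 to 430 at day 7 (326 ± 69.7, n = 8) and 240 to 346 at day 14 (277 ± 38.1, n = 7). The highest day 7 sums were in mice 15 and 10, and 3 day 7 females lay within the baseline range. Mouse 21, at 346, was the highest at day 14. Without the 4 mice with high lymphocyte markers the means were 249 ± 26.2 (n = 7), 298 ± 54.5 (n = 6) and 265 ± 25.0 (n = 6).

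Single genes followed these mice to very different degrees. Mouse 10 had the highest value of all 23 mice in 24 of the 42 genes tested (57.1%, against 12.4% of all genes). At least 3 of the 4 mice with high lymphocyte markers were among the top 4 mice in 15 of the 42 genes (35.7%, against 10.6% of all genes), and all 4 were above the other 19 in 1 gene, Hist1h1a (2.38%, against 4.55%). The mean over these 4 mice divided by that over the other 19 ranged from 0.69 (Hist2h3c1) to 4.27 (Hist1h1a), with a median of 1.502 over the 43 genes, and was 2 or more in 13. In Hist1h2bh it was 3.27 and in Hist1h1b 2.66. Among abundant genes it was 1.03 for Hist1h1e, 0.92 for Hist1h2bc and 1.28 for Hist1h1c, and for the called gene Hist2h2be 0.94. The part of lymphocytes in these differences was not tested.

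**Figure D4:**
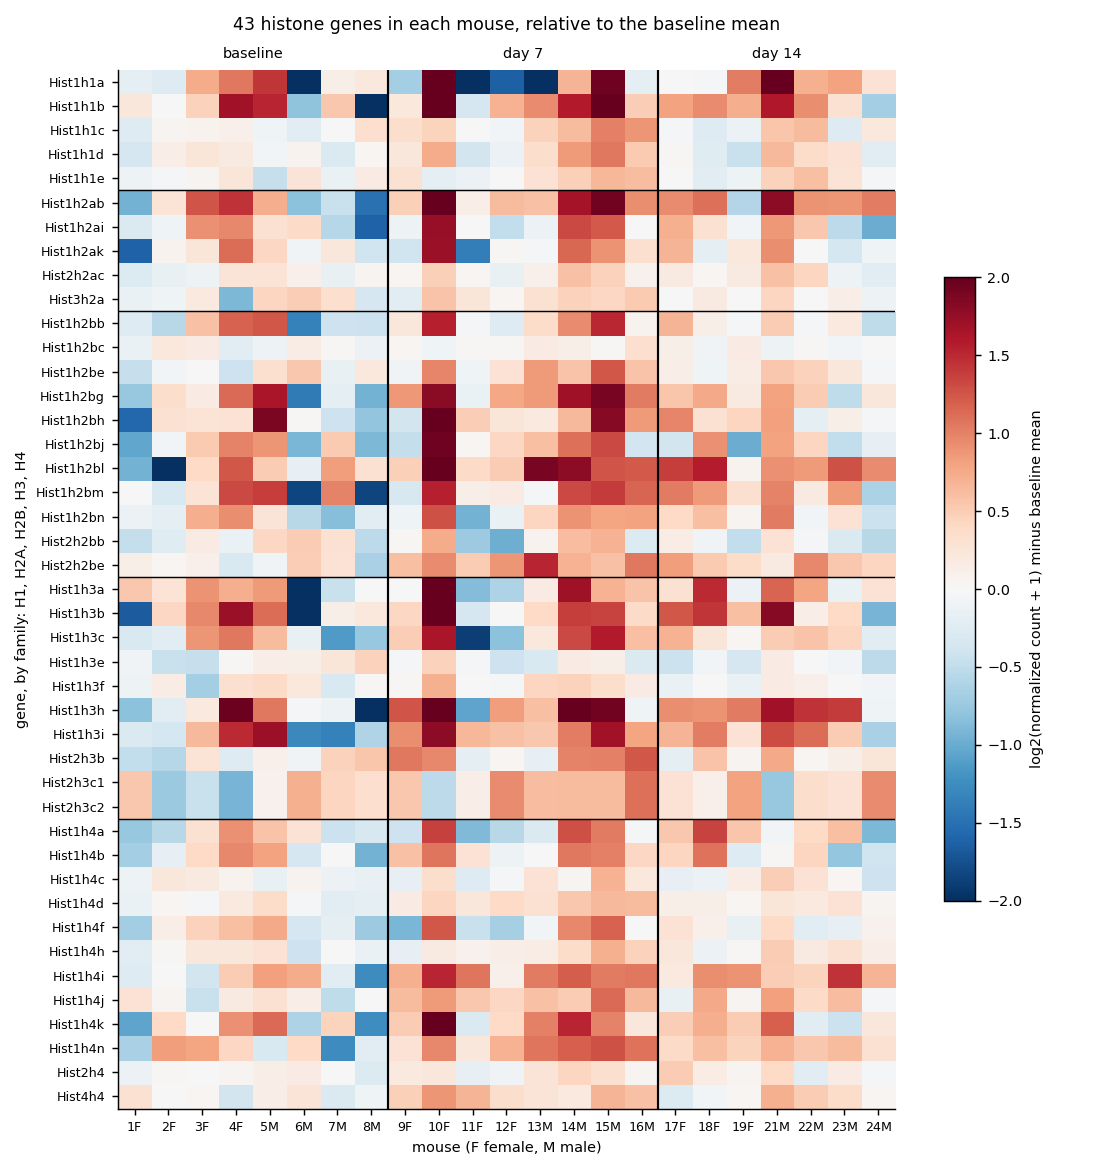
Each of the 43 histone genes (rows, by family) in each of the 23 mice (columns), as log2(normalized count + 1) minus the mean of the 8 baseline mice. Red is higher and blue lower. For many of the rarer genes mice 4 and 5 at baseline, mice 10, 14 and 15 at day 7 and mouse 21 at day 14 are dark red, and the row of Hist1h2bc is pale throughout.

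The next question was whether any difference was left at day 14. No gene was called against baseline, in edgeR or in DESeq2 (0.697% of all genes were called higher and 0.0902% lower in edgeR). At an unadjusted p under 0.05 there were 3 genes by edgeR, all higher (6.77% of all genes), and 1 by DESeq2, and in none of the 42 was every day 14 mouse above every baseline mouse (0.435% of all genes). The median log2 fold change was 0.15 (all genes 0.01), and 36 of 42 genes were positive, against 51.6% of all genes. That direction depended on the fit: with the mapped share of reads as a covariate 16 of 42 were positive (median -0.07, 51.1% of all genes positive), with a length offset 28 (median 0.05) and with total count scaling 42 (median 0.36, where the median of all genes was 0.22). Hist2h2be had the smallest p, with a log2 fold change of 0.56 ± 0.19 (adjusted p = 0.163) and 4 of 7 mice above every baseline mouse. Hist1h4i had 0.68 ± 0.31 (adjusted p = 0.331), Hist1h4j 0.36 ± 0.17 (adjusted p = 0.336) and Hist1h2bl 0.84 ± 0.42 (adjusted p = 0.392). These and Hist1h4n (0.37 ± 0.24, adjusted p = 0.55) are 5 of the 7 genes called at day 7, a comparison that shares the 8 baseline mice. Hist1h4d, abundant and with little spread, was at 0.12 ± 0.09 (adjusted p = 0.584), and Hist1h3e at -0.19.

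Compared directly with day 7, day 14 values were lower in 40 of 42 genes (median log2 fold change -0.31, all genes -0.01, with 46.3% of all genes positive), but none was called in edgeR or in DESeq2 (0.205% of all genes were called higher and 0.172% lower in edgeR). At an unadjusted p under 0.05 there were 7 genes by edgeR and 6 by DESeq2, all of them lower in edgeR (6.19% of all genes). Hist1h4d came nearest, at -0.28 ± 0.08 (adjusted p = 0.0828), and was the 1 gene with an adjusted p under 0.05 in DESeq2 (0.0289), below the fold threshold. It was followed by Hist1h1c at -0.38 ± 0.13 (adjusted p = 0.163) and Hist1h2be at -0.43 ± 0.15 (adjusted p = 0.179).

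The study also compared the sexes. Over all time points no histone gene was called between male and female mice in edgeR or DESeq2, where 0.0902% of all genes were called higher and 0.139% lower in males by edgeR. Positive values were found for 29 of 42 (49.9% of all genes), and 4 genes had an unadjusted p under 0.05 by either tool, all higher in males in edgeR (4.38% of all genes). The smallest p were those of Hist1h2be (log2 fold change male against female 0.41 ± 0.13, adjusted p = 0.197), Hist1h1c (0.35 ± 0.11, adjusted p = 0.199) and Hist1h1e (0.30 ± 0.10, adjusted p = 0.255). Hist1h1c had medians of 299 and 279 in baseline females and males, 327 and 487 at day 7 and 264 and 375 at day 14. At day 7 the 4 males (393 to 578) were all above the 4 females (274 to 389). Hist1h1e at day 7 ranged from 357 to 462 in males and from 259 to 360 in females, which overlapped by 1 mouse of each sex. Its male against female difference was 0.30 over all time points but -0.08 within baseline.

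Summed histone levels at day 7 were 236 to 386 CPM in females (median 262) and 310 to 430 in males (median 360). Mouse 10 was the highest female, and the other 3 lay between 236 and 274. At baseline they were 212 to 293 in females and 236 to 282 in males. The interaction of sex with time at day 7 was tested for each gene, and none passed in edgeR or DESeq2 (0.0082% of all genes in edgeR). Values were positive for 31 of 42 genes (47.8% of all genes). At an unadjusted p under 0.05 there were 8 genes by edgeR (5.6% of all genes) and 6 by DESeq2, the smallest edgeR adjusted p being that of Hist1h4n (interaction 1.32 ± 0.39 on the log2 scale, adjusted p = 0.45). For Hist1h4n the interaction was 1.43 without the 4 mice, which were chosen after seeing the data. In that edgeR fit 18 of 35 histone genes (51.4%, against 9.11% of all genes) had an unadjusted p under 0.05. Hist1h2bn had the smallest adjusted p (0.0892). By summed level mouse 10 was the highest day 7 female and mouse 5 the highest baseline male, so leaving either out raises this interaction. Mouse 15, the highest day 7 male, acts the other way. The share was 34.2% without mouse 10 alone (6.08% of all genes) and 25% without mouse 5 (6.76%). It was 7.89% without mouse 15 (5.83%) and 19% without mouse 21 (5.62%). At day 14, 1 gene by either tool had an unadjusted interaction p under 0.05 (3.77% of all genes in edgeR) and none passed.

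Histones that are made outside S phase were set beside them. None of the 9 replication-independent histone genes tested was called at day 7 (median log2 fold change 0.16), although H3f3a, which encodes the H3.3 variant, was at 0.30 ± 0.07 (adjusted p = 0.00486), below the fold threshold. The centromeric Cenpa had 1.14 ± 0.43 (adjusted p = 0.0616). None of the 12 tested genes that act in transcription or 3′ processing of histone mRNA was called (median 0.11), and the 2 of smallest p were Sympk, a scaffold of the cleavage complex (-0.28 ± 0.06, adjusted p = 0.00309), and Casp8ap2 (0.26 ± 0.10, adjusted p = 0.0652). None of the 9 histone chaperones tested was called (median 0.03), Ipo4 (-0.26 ± 0.06, adjusted p = 0.00428) and Nasp (0.30 ± 0.11, adjusted p = 0.0566) having the smallest p. At day 14 no gene of these lists was called.

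Genes of the cell cycle divided. Of 25 DNA replication genes tested, which are expressed in S phase together with histones, none was called at day 7, 13 were positive and 12 negative, and the median was 0.03. Mcm2, a subunit of the replicative helicase, had -0.40 ± 0.17 (adjusted p = 0.096) and Prim1 -0.35 ± 0.21 (adjusted p = 0.252). All 19 genes of G2 and mitosis tested were positive (median 0.67), and 3 were called higher: Ube2c (1.15 ± 0.38, adjusted p = 0.0325), Top2a (0.77 ± 0.26, adjusted p = 0.0418) and Ccnb1 (0.97 ± 0.35, adjusted p = 0.0499). At day 14 none of either list was called, and the medians were 0.04 and -0.01. Per mouse, the sum of the G2 and mitosis list at day 7 was 97.5 to 165 CPM in males and 39.5 to 139 in females, with mouse 10 the highest female. Without the 4 mice with high lymphocyte markers, 17 of these genes were tested, all 17 were positive (median 0.48) and none was called, and 6 of 25 DNA replication genes were positive (median -0.11).

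**Figure D5:**
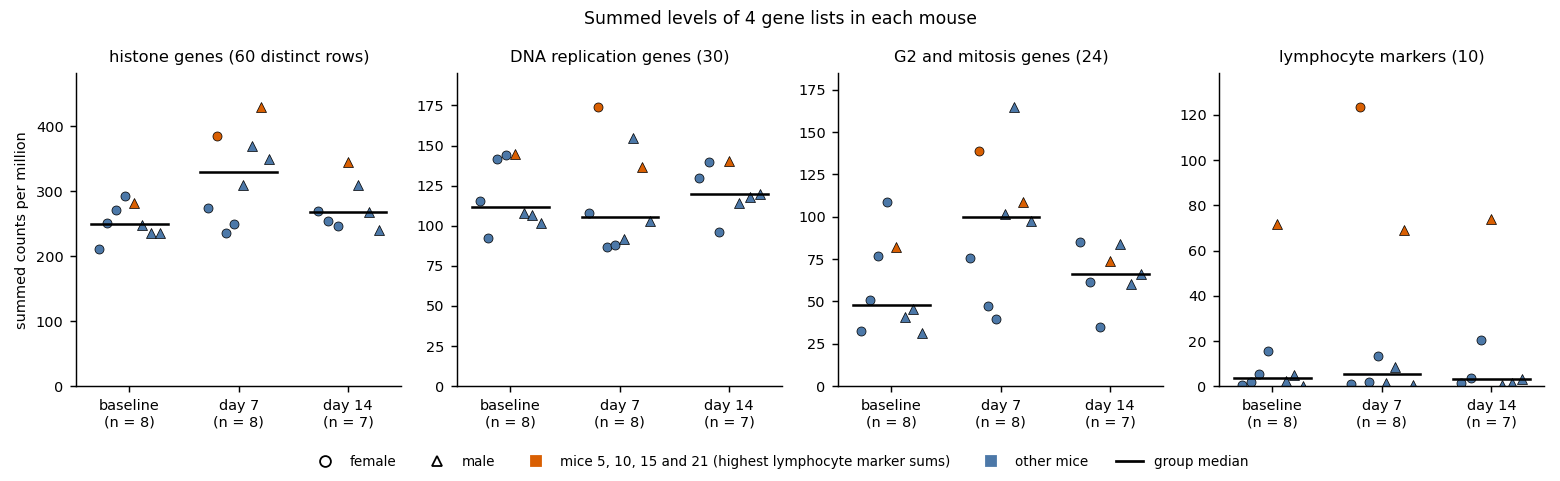
Summed CPM of the histone genes, the DNA replication list, the G2 and mitosis list and the lymphocyte markers in each mouse (circles female, triangles male, bars the group medians, orange the 4 mice with high lymphocyte markers). The histone median is higher at day 7 (330) than at baseline (250) and day 14 (268), while the DNA replication medians are 112, 106 and 120 at baseline, day 7 and day 14.

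Other RNAs that lack a poly(A) tail were set beside the histone mRNAs. Of 7 tested, 4 were called higher at day 7: the minor spliceosome RNAs Rnu12 (0.82 ± 0.09) and Rnu11 (0.96 ± 0.13), the RNase P RNA Rpph1 (0.60 ± 0.09) and the telomerase RNA Terc (0.98 ± 0.17), all at adjusted p of 1.77e-04 or less. Rnu12 and Rnu11 were also called at day 14 (0.80 ± 0.10 and 0.69 ± 0.14). Rnu7, the RNA of the U7 particle that processes histone mRNA, had -0.05 ± 0.24 at day 7. The median of the list was 0.60 at day 7 and 0.49 at day 14, beside 0.49 and 0.15 for histone genes.

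Markers of other cell types moved at day 7 as well. Higher were 7 of 10 macrophage, 8 of 9 fibroblast, 4 of 7 islet, 4 of 5 erythroid and 2 of 7 ductal markers, and lower were 6 of 12 acinar markers and 1 of 6 endothelial markers (Flt1). None of 4 lymphocyte markers tested and none of 4 adipocyte markers was called, and the 3 neutrophil markers in the files were too low to be tested. Summed, the macrophage markers were at 56.6 to 214 CPM at baseline and 134 to 316 at day 7, and the fibroblast markers at 350 to 707 and 667 to 1258. The highest macrophage sums at day 7 were in mice 10 and 15. Leaving out the 4 mice, 7 macrophage, 8 fibroblast, 4 islet, 3 erythroid and 2 ductal markers were called higher and 5 acinar and 2 endothelial markers lower. The part of these cell types in the histone values was not tested.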

How the data were processed

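The deposited files hold counts, 1 whole number per gene symbol for each of 23 mice. The authors trimmed the reads with Trim Galore and cutadapt, aligned them to mm10 with STAR 2.5.2a and counted uniquely mapped fragments with featureCounts. The gene annotation and strand setting were not given in the sources used here. Counts were scaled with TMM and tested with edgeR 4.0.16 (glmQLFit and glmQLFTest, robust) in R 4.3.3, on 12195 genes kept by filterByExpr, in 1 fit of 23 mice on time point and sex. The interaction was taken from a model with 1 mean for each sex at each time point and was judged by adjusted p alone. P-values are two-sided and Benjamini-Hochberg adjusted over all genes tested. SEs were derived from the size of each log2 fold change and its F statistic. Mice are the replicates. Total counts of 7059890 to 9567446 limit the precision of the rare genes, and the SEs include that counting error. Mapping rates, used only as a covariate, were taken from the study. Gene models and lengths are from GENCODE vM21. Each mouse was left out in turn, and DESeq2 1.42.0, other scalings, filters and covariates were alternatives. The test was also run on counts simulated from the mean and fitted spread of each gene in these data. Such a run cannot show how well the model holds for rare genes.

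Members and lists were chosen with earlier results of these data known. Named were all called genes, the 6 of smallest p at day 14, the 5 highest per kilobase, the 3 of smallest p between the sexes and, from each list, called genes or the 2 of smallest p; other genes were named after their values were seen.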

Additional observations from a re-analysis of the deposited data

Results flagged for a closer look

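In each group the highest and the lowest mouse were compared with Dixon's 95% critical values for the 13 named genes and for the summed levels of all histone genes and of each family, 57 groups in all, and 2 stood apart, where chance alone gives about 1 in 20. In Hist2h2be at day 7, mouse 13 had 44.4 normalized counts and the other 7 mice 21.3 to 31.6. In the summed H2A genes at day 14, mouse 21 had 25.5 CPM and the other 6 mice 14.5 to 18.5. Mouse 21 is 1 of the 4 mice with high lymphocyte markers; mouse 13 is not.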

How the results depend on the processing

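The number of histone genes called at day 7 (7 of 42, against 3.82% of all genes called higher) depended on the processing. With at least 10 counts in every mouse, where fewer genes were tested, it became 2 of 17 (2.43% of all genes). With only the mice compared, which also tested fewer genes, it was 3 (10.3%, against 3.17%). A length offset gave 3 (7.14%, against 3.42%). The mapping rate as a covariate gave 0 (0.533% of all genes), and total count scaling gave 32 (76.2%, against 30.4%). That scaling also moved the median of all genes at day 7 from 0.02 to 0.48 and the histone median from 0.49 to 0.95. It called 1 gene at day 14 against baseline (3.62% of all genes higher) and 6 between day 14 and day 7 (3.8% of all genes lower). DESeq2 called 6 (14.3%, against 4.04% of all genes), all among the 7. Leaving out 1 mouse gave 3 (without mouse 10, 7.89%, against 3.44% of all genes) to 8 (without mouse 11, 19%, against 4.17%) at day 7. It gave 0 in the other comparisons. Leaving out the 4 mice with high lymphocyte markers, chosen after seeing the data, gave 2 (5.71%, against 3.42% of all genes). The lymphocyte level as a covariate, also added later, gave 7 (16.7%, against 4.5% of all genes), 6 of them shared. The baseline median of the summed histone level was 205 CPM without TMM factors, against 250. Leaving out 1 mouse put the medians between 248 and 251 (baseline), 310 and 350 (day 7), and 261 and 269 (day 14).

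With the mapping rate as a covariate, which nearly followed the time point, the histone median at day 14 turned from 0.15 to -0.07. Of single genes, signs turned for named values that were not called. Hist1h2be (-0.0929) and Hist2h3b (-0.0358) at day 14 turned with the mapping rate. With a length offset, Hist1h4h (-0.00885), Hist1h2bc (-0.0459) and Hist1h4c (-0.0381) turned at day 14 and Hist1h2bc (-0.00383) at day 7. Without the 4 mice, Hist1h1c (-0.00683) and Hist1h4c (-0.0671) turned at day 14 and Hist1h4c (-0.0291) at day 7. With the GC offset, Hist1h2bc (-0.0140) turned at day 14, as it did without mouse 1, 4, 5, 8, 17 or 19. Leaving out 1 mouse gave -0.0196 to 0.0417 for Hist1h2bc and -0.0306 (without mouse 21) to 0.115 for Hist1h4c. Hist1h1e was at -0.0788 between the sexes within baseline. The causes were not tested. No paired analysis was possible because the groups share no mouse numbers.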
